A study of Mus musculus with 4 samples.

Results

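The IL-1 and IL-36 genes described here are 10 of 18193 genes measured in mouse skin, taken by name from the array annotation. They are 6 agonists (Il1b, Il1a, Il18 and the IL-36 genes Il1f6, Il1f8 and Il1f9, also named Il36a, Il36b and Il36g), the receptor antagonist Il1rn, the signalling receptor Il1r1, its accessory chain Il1rap and the decoy receptor Il1r2. Each gene was read from 1 probe set, the one with the highest mean on the log2(signal + 16) scale over the 4 arrays. The study used 3′ expression arrays for 2 skin samples given MC903 (calcipotriol, which acts on the vitamin D receptor and causes dermatitis in mice) and 2 Control samples given ethanol, its vehicle. All samples came from wild type female BALB/c mice, and both groups had been sensitised on the ear skin with ovalbumin together with MC903 and then given ovalbumin by mouth. The Control mice had therefore also met MC903 earlier. The groups differ in what was put on the skin between that oral challenge and the next one. Age, dose, duration, the site of this later treatment and whether each array holds 1 animal or a pool are not given in the sources used here, and every p-value therefore rests on a spread between arrays that may be technical.

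IL-1α and IL-1β bind Il1r1, which then recruits Il1rap and starts signalling through the adaptor Myd88 to NF-κB. The antagonist encoded by Il1rn occupies Il1r1 without recruiting Il1rap, and Il1r2 binds IL-1 but lacks a signalling tail. The IL-36 cytokines, made largely by keratinocytes, use another receptor (Il1rl2) with the same accessory chain and have their own antagonist, encoded by Il1f5. IL-18 has its own receptor chains (Il18r1 and Il18rap) and a soluble binding protein (Il18bp). IL-1β and IL-18 are made as precursors that caspases cut, and the IL-36 cytokines gain activity when trimmed by proteases, so a transcript level is not a level of active cytokine.

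Arrays shared a scale, with a mean of 500 after trimming 2% of the signals at each end, and the median signals were 90.2 and 99.6 in MC903 against 109 and 99.7 in Control. All 10 genes lay above background on every array, with signals of 127 to 5377, where probe sets for bacterial TrpnX transcripts, used here as background, gave 1.55 to 24. Each of 10 basal keratinocyte markers measured exceeded that range on at least 1 array of each group. Hair shaft markers separated the groups, 11 of 11 being lower in both MC903 arrays, against 28.2% of all genes. Their summed signals were 2340 and 1625 in MC903, against 25753 and 44581 in Control. Summed skeletal muscle markers were 13780 and 43878 in MC903, against 53022 and 29456 in Control, which varied within both groups. In whole skin, fewer cells of a type and less RNA per cell cannot be told apart.

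All agonist genes except Il18 were higher in both MC903 samples, and the 3 receptor chains were close to their Control levels. Il1b differed most (7.53-fold), followed by the 3 IL-36 genes (Il1f6 3.76-fold, Il1f8 2.49-fold, Il1f9 2.34-fold), Il1a (1.85-fold) and the antagonist Il1rn (1.73-fold). Of the 10 genes, 7 had both MC903 values above both Control values, against 21.6% of all genes, and 1 (Il1rap) had both below, against 28.2%. When each MC903 array was set against each Control array, all 4 pairings were at least 2-fold higher for 2 of the 10 (Il1b and Il1f6), against 1.16% of all genes, and 2-fold lower values for 0, against 0.813%. Without MC903 replicate 1 the first of these counts was 5, but fewer pairings then remain and the share over all genes was not taken. The median log2 difference was 0.84 over the 10 genes and -0.04 over all genes. None of the differences passed the test across all genes. With limma and a constant prior variance, 0 genes of 18193 (0%) had an adjusted p below 0.05, although 2767 had an unadjusted p below 0.05, 6 of the 10 among them. When the prior variance followed the signal, limma called 168 genes (0.923%), of which 98 were higher (0.539%) and 70 lower (0.385%), and 0 of the 10, whose adjusted p ran from 0.056 to 0.97. With that prior, 4 of the 10 passed without MC903 replicate 1, when 1.25% of all genes did, and 5 without MC903 replicate 2, when 5.2% did. Without Control replicate 1 (0.0824% of all genes) and without Control replicate 2 (0.0275%), 0 of the 10 passed. For a single gene, the smallest two-sided p of an exact permutation test with 2 arrays a group is 0.333.

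**Figure D1:**
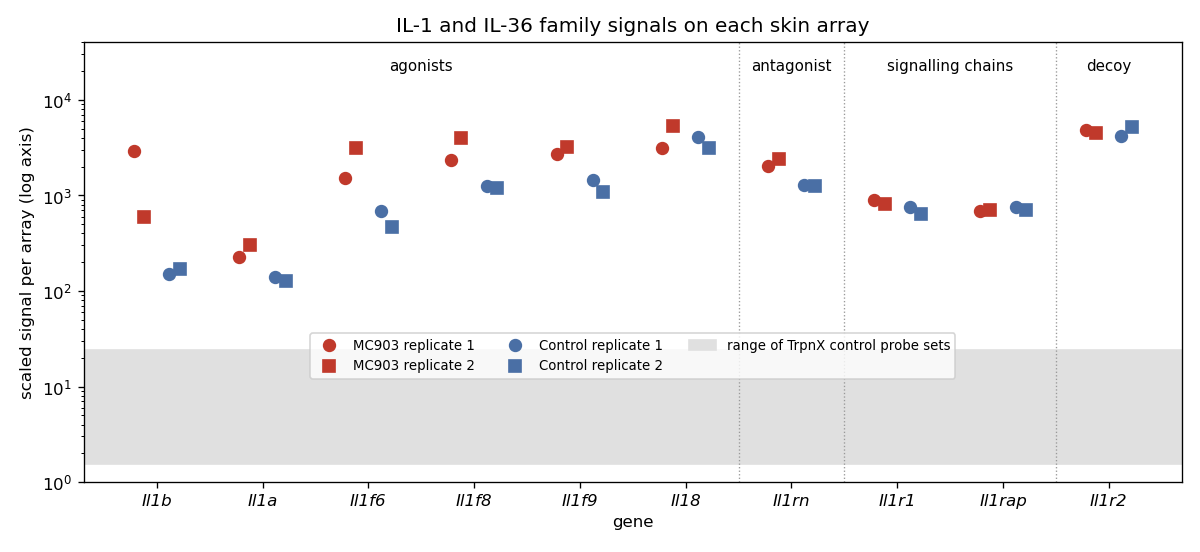
Scaled signal of each gene (log axis) on every array, with MC903 arrays in red left of Control arrays in blue, circles for replicate 1 and squares for replicate 2, genes grouped by role, and the range of the TrpnX control probe sets in grey. Both MC903 points lie above both Control points for 5 of the 6 agonists, for Il1rn and narrowly for Il1r1, while the groups overlap for Il18 and Il1r2.

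Il1b, the IL-1 agonist made by macrophages, neutrophils and stressed keratinocytes, had signals of 2898 and 592 in MC903 skin, against 151 and 171 in Control skin. Both MC903 arrays were well above the Control arrays, which lay close together, but MC903 replicate 1 stood far above MC903 replicate 2. The log2 difference was 2.91 ± 0.79 (SE, n = 2 per group), and limma gave an adjusted p of 0.25 with a constant prior and 0.14 with a prior that followed the signal. Without MC903 replicate 1 the difference was 1.78, and without MC903 replicate 2 it was 4.04. In size of difference Il1b ranked 49 among the 18193 genes. Its neighbour Il1a encodes IL-1α, which keratinocytes store and release on injury. Il1a had signals of 227 and 300 in MC903, against 141 and 127 in Control. The groups did not overlap, and the log2 difference was 0.88 ± 0.20 (limma, adjusted p = 0.22).

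The promoter windows of 4 of the genes that were higher in both MC903 arrays are shown because they allow Il1b, the gene with the largest difference, to be set beside those with an AP-1 match. They run from 250 bases before to 50 after the gene start, 5′ to 3′ on the gene's strand, from RefSeq on GRCm38.p6, with letters of a match in capitals. Il1b lies at chr2:129371090-129371389 (minus strand), Il1a at chr2:129309923-129310222 (minus strand), Il1f8 at chr2:24152922-24153221 (plus strand) and the Il1rn window with a match at chr2:24336610-24336909 (plus strand).
Il1b: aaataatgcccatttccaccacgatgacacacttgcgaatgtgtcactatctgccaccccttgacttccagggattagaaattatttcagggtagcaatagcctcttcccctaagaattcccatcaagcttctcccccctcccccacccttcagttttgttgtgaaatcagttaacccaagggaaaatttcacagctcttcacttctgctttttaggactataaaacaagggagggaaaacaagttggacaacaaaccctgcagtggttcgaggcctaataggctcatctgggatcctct
Il1a: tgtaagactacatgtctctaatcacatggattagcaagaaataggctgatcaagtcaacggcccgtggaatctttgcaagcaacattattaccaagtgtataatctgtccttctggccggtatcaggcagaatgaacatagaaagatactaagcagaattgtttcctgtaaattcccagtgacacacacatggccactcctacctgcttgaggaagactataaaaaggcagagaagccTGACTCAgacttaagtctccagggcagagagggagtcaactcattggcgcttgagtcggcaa
Il1f8: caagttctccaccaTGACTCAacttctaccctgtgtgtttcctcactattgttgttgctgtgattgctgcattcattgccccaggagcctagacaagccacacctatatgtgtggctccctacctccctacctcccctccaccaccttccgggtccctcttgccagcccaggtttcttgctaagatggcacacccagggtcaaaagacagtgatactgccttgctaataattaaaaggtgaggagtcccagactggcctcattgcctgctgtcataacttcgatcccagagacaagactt
Il1rn: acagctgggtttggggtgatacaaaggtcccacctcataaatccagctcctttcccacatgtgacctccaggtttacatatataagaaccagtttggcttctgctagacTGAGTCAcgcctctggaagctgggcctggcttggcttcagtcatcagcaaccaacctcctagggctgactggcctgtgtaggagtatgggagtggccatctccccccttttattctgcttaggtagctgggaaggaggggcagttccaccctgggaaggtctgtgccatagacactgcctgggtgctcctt
The table held windows for 9 of the 10 genes, 12 windows in all, and Il1f6 had no entry. Il1r1 and Il1rn had more than 1 window each, so the 12 are not separate promoters. The Il1rn windows not shown overlapped each other and held no match. Searched on both strands, the AP-1 motif TGANTCA, bound by Fos and Jun proteins, was found in 3 of the 12 windows (25%), 1 each of Il1a, Il1f8 and Il1rn, against 7.81% of all 32851 windows. Relative to the gene start, the match began at -12 in Il1a, at -236 in Il1f8 and at -141 in Il1rn. The NF-κB consensus, 10 bases long, was found in 1 of the 12 windows (8.33%), 1 of the windows of Il1r1, against 8.46% of all windows. The DR3 vitamin D response element, 15 bases long, was found in 0 of the 12, against 0.0396% of all windows. A match describes the letters of a window and is not evidence of binding.

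The 3 IL-36 agonist genes lie side by side on chromosome 2 and were all higher in MC903. Il1f6 (IL-36α) had signals of 1505 and 3157 in MC903, against 689 and 468 in Control. Both MC903 arrays were above both Control arrays, here with replicate 2 the higher. Its log2 difference was 1.91 ± 0.43, rank 116 of 18193 genes (limma, adjusted p = 0.22; 0.10 with a prior that followed the signal). Il1f8 (IL-36β) had signals of 2335 and 4005 in MC903 and of 1253 and 1185 in Control, a log2 difference of 1.32 ± 0.30 (limma, adjusted p = 0.22). Il1f9 (IL-36γ) had signals of 2703 and 3190 in MC903 and of 1443 and 1075 in Control, a log2 difference of 1.23 ± 0.22. For both genes the groups were clearly apart, although the smallest of the 4 pairings stayed under 2-fold (1.85-fold for Il1f8 and 1.86-fold for Il1f9). Of the 10 genes, Il1f9 came closest to the threshold, with an adjusted p of 0.19 from limma with a constant prior and 0.056 with a prior that followed the signal.

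Il18, an agonist that keratinocytes hold as a precursor, had signals of 3124 and 5377 in MC903, against 4110 and 3138 in Control. The lowest and the highest value both belonged to MC903 arrays, so the groups overlapped completely. The log2 difference was 0.19 ± 0.33 (limma, adjusted p = 0.82) and was -0.20 without MC903 replicate 2 and 0.00 without Control replicate 2. The antagonist Il1rn had signals of 2041 and 2398 in MC903 and of 1301 and 1245 in Control. Replicates lay close together in each group and the groups did not overlap, with a log2 difference of 0.79 ± 0.17 (limma, adjusted p = 0.21; 0.073 with a prior that followed the signal). The 2 other probe sets of Il1rn gave log2 differences of 0.74 and 0.47.

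Of the signalling chains, Il1r1 had signals of 901 and 815 in MC903, against 757 and 636 in Control. Both MC903 arrays were higher, by a margin smaller than the gap between the Control arrays, and the log2 difference was 0.30 ± 0.18 (limma, adjusted p = 0.49). Its other probe set lay within the TrpnX range on all 4 arrays, and averaging both gave 0.03. Il1rap, the chain that the IL-1 and IL-36 receptors share, had signals of 687 and 697 in MC903, against 752 and 705 in Control. Both MC903 arrays were lower by a small margin. The log2 difference of -0.07 ± 0.15 (limma, adjusted p = 0.85) was 0.01 with arrays centred on their medians and 0.24 with its probe sets averaged. Of its 4 other probe sets, 1 lay within the TrpnX range on all 4 arrays and 1 (log2 difference 1.08) on 2 arrays. The remaining ones lay above that range on every array and gave log2 differences of 0.12 and 0.02. The decoy Il1r2 had signals of 4802 and 4483 in MC903, against 4229 and 5207 in Control. The Control arrays enclosed the MC903 arrays, and the log2 difference was -0.02 ± 0.18 (limma, adjusted p = 0.98), or 0.06 with arrays centred on their medians. With these standard errors, small changes of the receptor genes would not have been detectable.

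The 2 MC903 arrays ranked the cytokine genes differently. Against the mean of the Control arrays, Il1b was 16.5-fold higher on MC903 replicate 1 and 3.44-fold on replicate 2. Il1f6 was 2.60-fold higher on MC903 replicate 1 and 5.43-fold on replicate 2, and Il1f8 1.91-fold and 3.26-fold in the same order. Il1f9 differed less between them (2.16-fold and 2.54-fold), as did Il1a (1.62-fold and 2.11-fold) and Il1rn (1.60-fold and 1.87-fold). Il1b was thus the one cytokine gene of the 10 that was higher on replicate 1.

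Marker levels of other cell types also differed between these arrays. For the counts below, the shares over all genes were 21.6% higher and 28.2% lower in both MC903 arrays. Of 11 neutrophil markers measured, 6 were higher in both MC903 arrays, and their summed signals were 2775 and 1232 in MC903, against 819 and 823 in Control. All 11 exceeded the TrpnX range on at least 1 array of each group. Of 14 monocyte and macrophage markers, 13 were higher, with sums of 65731 and 39442 in MC903, against 28349 and 26841 in Control, and Marco lay within the TrpnX range on all arrays. In sum both lists were higher on MC903 replicate 1, as Il1b was. The exceptions above background were the neutrophil markers Ltf (33.3 and 68.3) and Mpo (177 and 382) and the macrophage marker Lyz2 (9677 and 11510), which were higher on replicate 2. The median log2 difference of neutrophil markers was 1.11. Without the dimmest 50% of genes Mpo alone was left of this list, at -0.23. Suprabasal keratinocyte markers, 6 of 11 of them higher, had sums of 192019 and 223913 in MC903, against 172177 and 161645 in Control, and were higher on replicate 2, as the IL-36 genes were. Activated keratinocyte markers, 4 of 4 of them higher, had sums of 127098 and 84838 in MC903, against 21967 and 23444 in Control. Unlike the IL-36 genes, they were higher on replicate 1. Of 10 basal keratinocyte markers, 3 were higher and 6 lower, with sums of 115033 and 111949 in MC903, against 118295 and 120312 in Control. For T cells, 5 of 7 were higher, with sums of 2486 and 2447 against 1283 and 1435 in Control, and Cd4 lay within the TrpnX range in Control. Mast cell and basophil markers (4 of 8 higher, 1 lower) had sums of 13695 and 8093 in MC903, against 7783 and 6774 in Control, and were also higher on replicate 1. Among them Mcpt8 stood at 2972 and 257 in MC903 and lay within the TrpnX range in Control. Their median log2 difference was 0.50, and 0.19 without MC903 replicate 1. Dendritic and Langerhans cell markers (6 of 9 higher) had sums of 11589 and 12616 in MC903, against 9861 and 9502 in Control. Their median was 0.58, and 0.40, 0.31 and 0.26 without MC903 replicate 1, MC903 replicate 2 and Control replicate 2 in turn. Of fibroblast markers 5 of 9 were lower, of endothelial markers 3 of 9 were higher and 1 lower, and of blood markers 1 of 3 was lower. With so few markers, the endothelial and blood counts and the count of higher basal keratinocyte markers do not stand apart from the shares over all genes. The part of these cell types in the cytokine differences was not tested.

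**Figure D2:**
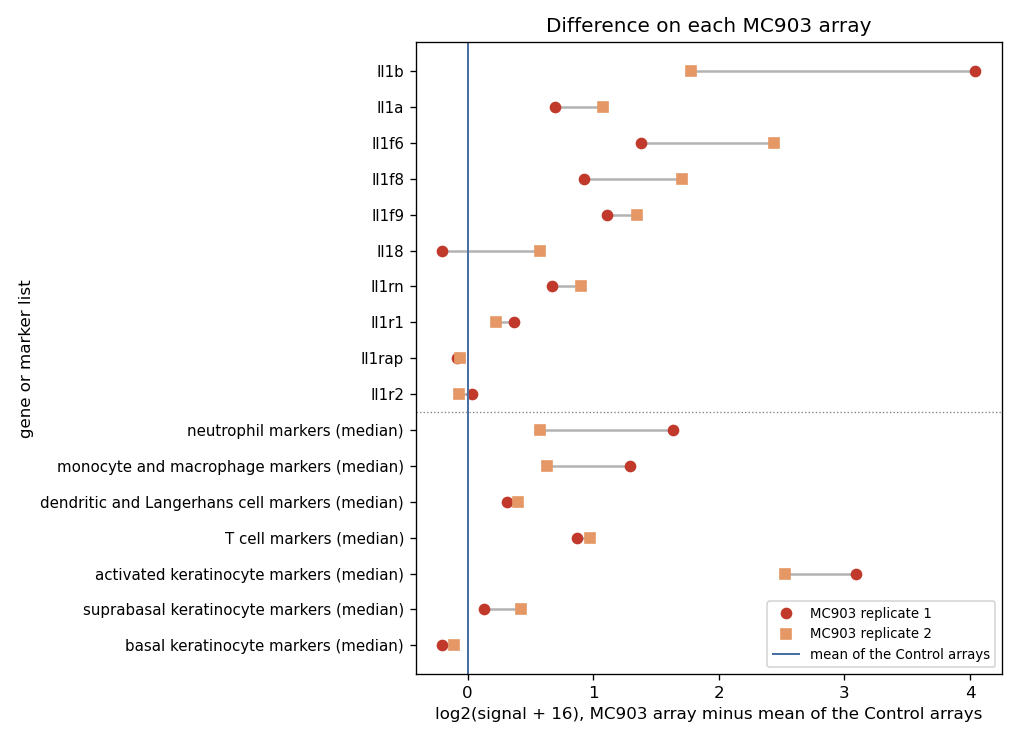
Difference in log2(signal + 16) of each MC903 array from the mean of the Control arrays (blue line), for the 10 genes above the dotted line and for the medians of marker lists below it. For Il1b and for neutrophil, macrophage and activated keratinocyte markers replicate 1 lies to the right of replicate 2, while for Il1f6, Il1f8 and suprabasal keratinocyte markers it lies to the left.

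The genes nearest to Il1b and Il1f6 in their pattern over the 4 arrays were found by Euclidean distance between centred log2 values. Nearest to Il1b was Lcn2, which encodes the iron-sequestering antimicrobial lipocalin 2, with signals of 6213 and 1187 in MC903, against 276 and 327 in Control (distance 0.22). Next were Cyp4f18 (distance 0.54), a cytochrome of lipid mediator breakdown, and Slpi (distance 0.57), which encodes a protease inhibitor of epithelia and leukocytes. Nearest to Il1f6 was the skin keratin gene Krt77, with signals of 4925 and 9970 in MC903, against 2371 and 1358 in Control (distance 0.19). Then came Dio2 (distance 0.29), an enzyme that activates thyroid hormone, and Erv3 (distance 0.31), whose Control signals of 19.5 and 6.99 lay within the TrpnX range, so that its distance is not well measured. Since these genes were picked for their likeness over the same 4 arrays, their patterns add nothing to those of Il1b and Il1f6.

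Balance between agonist and antagonist was followed within each array, where a difference in a ratio shows that the 2 genes did not differ by the same amount. The ± of a ratio is a standard error from its own 4 values alone. That of a single gene comes from limma, which also draws on the spread of all genes, so the 2 kinds cannot be compared. Il1b over Il1rn was 4.35-fold higher in MC903, a log2 difference of 2.12 ± 1.25. Its log2 values were 3.37 and 0.88 on the MC903 arrays, against -0.11 and 0.11 on the Control arrays, each relative to the Control mean. Il1f6 over Il1f5, the IL-36 receptor antagonist, was 2.04-fold higher (1.03 ± 0.27 on the log2 scale), with 0.78 and 1.27 in MC903 against 0.12 and -0.12 in Control. Both ratios separated the groups, at the smallest p that 2 against 2 arrays allow (exact permutation test, p = 0.333). For Il1a over Il1rn the groups overlapped, with a difference of 0.10 ± 0.08 on the log2 scale (exact permutation p = 0.667). Il1f9 over Il1f5 differed by 0.34 ± 0.18 and Il1r1 over Il1r2 by 0.31 ± 0.27, without overlap. Without MC903 replicate 1, Il1f9 over Il1f5 differed by 0.18. Il1r1 over Il1r2 differed by 0.042 without Control replicate 2, by 0.59 without Control replicate 1 and by 0.045 with averaged probe sets. Il18 over Il18bp (-0.32 ± 0.99) and Il1rap over Il1r2 (-0.06 ± 0.20) overlapped. Il18bp was dim, at 64.8 and 21.96 in MC903 against 39.4 and 11.5 in Control, so its ratio is poorly measured.

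**Figure D3:**
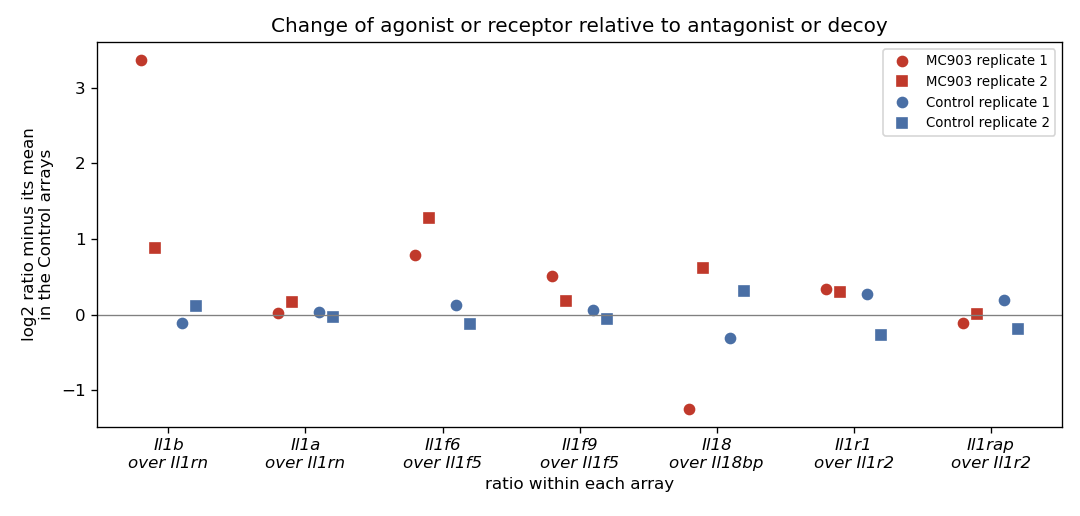
Log2 ratio of an agonist or receptor to its antagonist or decoy on each array, relative to the mean of the Control arrays, with MC903 arrays in red left of Control arrays in blue. Il1b over Il1rn reaches 3.37 on MC903 replicate 1 and 0.88 on replicate 2, and Il1f6 over Il1f5 lies above both Control values on both MC903 arrays.

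Of 10 measured IL-1 family genes outside the 10 described so far, 5 were higher in both MC903 arrays, 2 were lower, and 0 passed the test across all genes with either prior. The shares over all genes, here and for the lists that follow, were 21.6% higher and 28.2% lower. The median log2 difference of the 10 family genes was 0.50, against -0.04 over all genes, and includes Il1rapl1 and Il1rapl2, which overlapped and lay within the TrpnX range on all arrays. Il18rap, the accessory chain of the IL-18 receptor, had signals of 409 and 158 in MC903, against 79.8 and 76.0 in Control, and again replicate 1 was the higher. The log2 difference of Il18rap was 1.53, and 0.74 on its other probe set. Its partner chain Il18r1 stood at 250 and 272 in MC903 and at 186 and 125 in Control. Il1f5 stood at 7068 and 10509 in MC903 and at 5170 and 4211 in Control, a log2 difference of 0.88 ± 0.26 (limma, adjusted p = 0.14 with a prior that followed the signal). Il1f10, which encodes IL-38, described as a restraining member of the family, stood at 281 and 366 in MC903, against 691 and 937 in Control. Its log2 difference was -1.28 ± 0.24 (limma, adjusted p = 0.19, or 0.080 with a prior that followed the signal). The other gene that was lower was Sigirr, an orphan receptor that dampens IL-1 receptor signalling, at 229 and 260 in MC903 against 370 and 417 in Control. Sigirr was named after its values had been seen, as was Il1rl2, the IL-36 receptor, which stood at 2107 and 2278 in MC903 and at 1467 and 1625 in Control (log2 difference 0.50 ± 0.16) on a probe set marked by its name as one that can cross-hybridise. The other probe set of Il1rl2 gave a log2 difference of 0.89.

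By position, 6 family genes follow one another on chromosome 2, in the order Il1f8, Il1f9, Il1f6, Il1f5, Il1f10 and Il1rn. In this run 5 were higher in MC903 without overlap and Il1f10 alone was lower. The next genes beyond Il1rn, Psd4 and Pax8, had overlapping groups (log2 differences of -0.22 ± 0.21 and 0.22 ± 0.27), and Hnmt on the other side was lower (-0.52 ± 0.17). Among the receptor genes that follow one another on chromosome 1, Il1r1, Il1rl2, Il18r1 and Il18rap were higher without overlap, with log2 differences of 0.30, 0.50, 0.72 and 1.53, while Il1r2 at the end of the run was not, and Il1rl1 was not analysed here. The flanking genes were chosen by position and were not tested as a group.

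**Figure D4:**
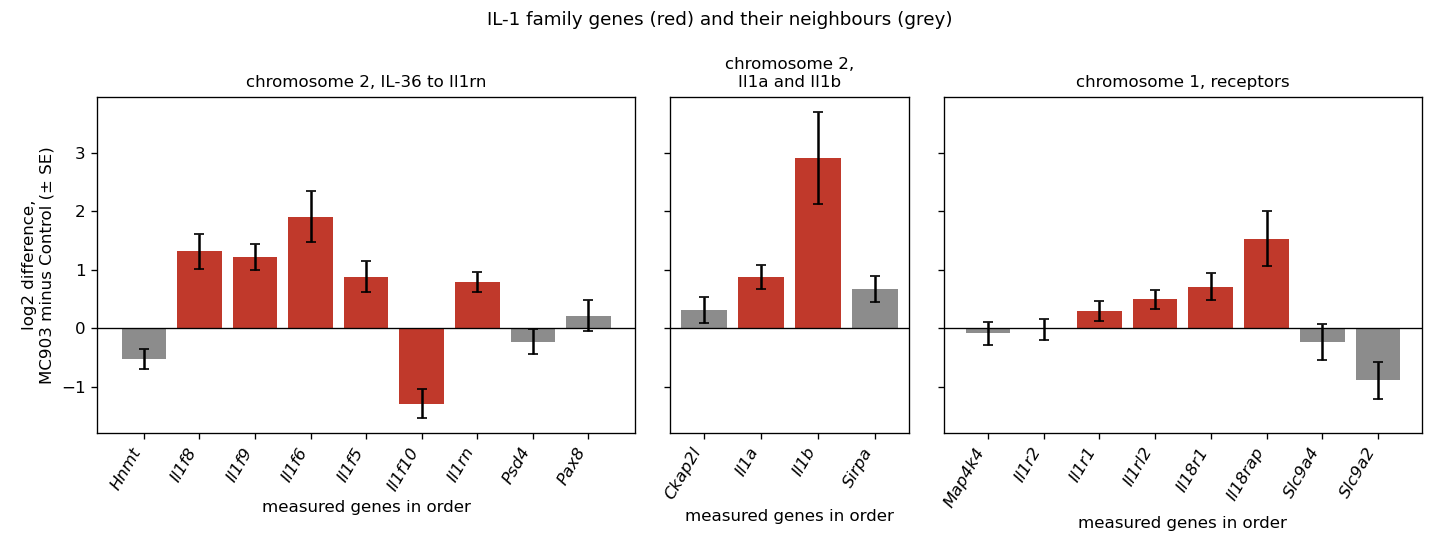
Log2 difference between MC903 and Control with its standard error (bars start at 0, error bars are ± SE, n = 2 per group) for IL-1 family genes in red and measured neighbouring genes in grey, in chromosomal order and not to genomic scale. The IL-36 genes, Il1f5 and Il1rn lie above 0 around Il1f10, which lies at -1.28.

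Of 19 measured genes of the inflammasome and of cytokine processing, 10 were higher in both MC903 arrays and 1 (Aim2) was lower, with a median log2 difference of 0.41. Prtn3, counted as higher, lay within the TrpnX range on all 4 arrays, and Aim2 lay within it in MC903, at 22.8 and 9.59, against 53.0 and 28.7 in Control. Casp4, which encodes the caspase of the inflammasome that senses intracellular endotoxin, rose by limma with a prior that followed the signal (adjusted p = 0.035), though not with a constant prior (adjusted p = 0.13). The call was lost without Control replicate 1 (limma, adjusted p = 0.34), without Control replicate 2 (0.34) and without MC903 replicate 1 (0.057). Its signals were 447 and 502 in MC903, against 134 and 145 in Control. Ctss, a lysosomal protease known in human skin to activate IL-36γ, stood at 13280 and 9990 in MC903 and at 5400 and 5799 in Control. Serpinb1a, an inhibitor of neutrophil proteases, stood at 4474 and 3355 in MC903 and at 1629 and 1895 in Control. The gasdermin gene Gsdma differed by 0.87 ± 0.18, on a probe set that may not tell its close copies apart. Casp1, the main IL-1β converting enzyme, was named after its values had been seen and overlapped between groups at 658 and 882 in MC903, against 555 and 713 in Control.

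Of 25 measured genes of signalling below the receptors, 14 were higher, 1 (Ikbkg) was lower and 0 passed with either prior, with a median of 0.30, or 0.18 with averaged probe sets. Zc3h12a, an RNase that degrades cytokine transcripts, had signals of 397 and 486 in MC903, against 173 and 179 in Control. Nfkbiz, a nuclear IκB protein needed for IL-36 responses of keratinocytes, had 1421 and 2258 in MC903, against 945 and 927 in Control. The adaptor Myd88 had 2380 and 1947 in MC903 and 1205 and 1196 in Control. The NF-κB subunit gene Rel differed by 0.77 ± 0.17. Of these, Zc3h12a was at least 2-fold higher in all 4 pairings.

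Genes known to respond to IL-1 or IL-36 had a median of 1.34 over 29 genes, 21 of them higher in both MC903 arrays and 1 (Lif) lower. Among the 21, Csf2, Csf3 and Cxcl3 lay within the TrpnX range in both Control arrays. Many also respond to other cytokines. The list was chosen with earlier results of these data known, so its median and counts are not independent of them. By limma 0 passed with a constant prior and 6 rose with a prior that followed the signal, namely Defb3 (adjusted p = 0.024), Ptgs2 (adjusted p = 0.032), Hbegf (adjusted p = 0.040), Sele (adjusted p = 0.040), Ptges (adjusted p = 0.046) and Cxcl1 (adjusted p = 0.048). Of these calls 0 held without Control replicate 1 or without Control replicate 2, those of Defb3 and Ptgs2 held without MC903 replicate 1, and all 6 held without MC903 replicate 2. Ptgs2, the inducible prostaglandin synthase, had signals of 612 and 358 in MC903, against 57.8 and 57.8 in Control. Sele, the endothelial selectin that captures leukocytes, had 462 and 336 in MC903, against 87.9 and 94.0 in Control. The largest log2 difference was that of the defensin gene Defb3 (5.17 ± 0.57), at 1505 and 1050 in MC903 against 4.79 and 44.6 in Control. The calprotectin subunit genes followed, with S100a9 (4.85 ± 0.97) at 26482 and 4081 in MC903 against 253 and 466 in Control, and S100a8 (4.69 ± 0.95) at 36943 and 5891 against 422 and 732 in Control. The neutrophil chemokine gene Cxcl5 (3.68 ± 0.97) stood at 1703 and 234 in MC903, against 29.4 and 41.9 in Control. MC903 replicate 1 was far above replicate 2 for S100a9, S100a8 and Cxcl5, whose log2 differences without it were 3.51, 3.37 and 2.28. Cxcl5 was then below Ptgs2 (2.34). The probe set of S100a8 is also marked as one that can cross-hybridise, and the lower Control signal of Defb3 lay within the TrpnX range. Without MC903 replicate 2 the median of the list was 1.93, and without MC903 replicate 1 it was 1.12. Cxcl2 and Tnf were named after their values had been seen. The neutrophil chemokine gene Cxcl2 was high on 1 array, at 3056 and 63.9 in MC903 against 70.2 and 41.3 in Control, and the cytokine gene Tnf overlapped, at 39.9 and 137 in MC903 against 93.2 and 61.3 in Control.

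**Figure D5:**
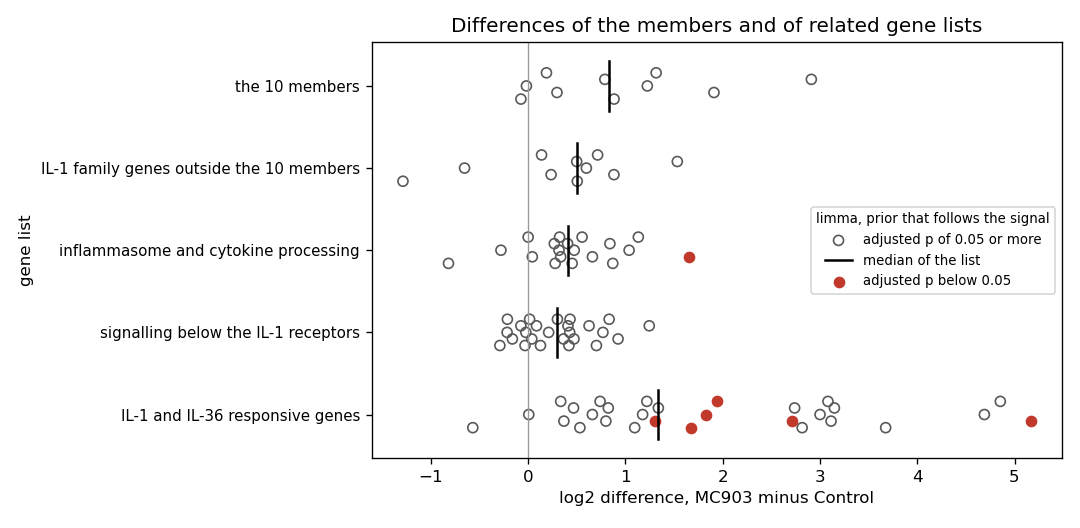
Log2 difference between MC903 and Control for the 10 genes and for the genes of 4 related lists, 1 point per gene, with the median of each list as a black line and filled points for an adjusted p below 0.05 by limma with a prior that followed the signal. Medians run from 0.30 for signalling genes to 1.34 for responsive genes, and filled points appear among the responsive genes (6) and the processing genes (1). The lists were chosen with earlier results of these data known.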

How the data were processed

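The deposited table holds linear array intensity values, that is scaled signals, of 45101 probe sets on 4 arrays, from total RNA labelled by 3′ in vitro transcription per the labels' protocols. No source used here names the software that made the intensity values, and the table carries no detection calls. Probe sets were named from the platform annotation and updated by Entrez ID to RefSeq symbols (GRCm38.p6), which left 18193 genes after 64 control probe sets, 932 with several symbols and 9160 unlisted ones were set aside. Signals were taken as log2(signal + 16) and groups compared with limma 3.58.1 in R 4.3.3 over all genes (constant prior variance, Benjamini-Hochberg, threshold 0.05), with 2 residual and 2.32 prior degrees of freedom. The script was checked on simulated data. Members, lists and tests were chosen with earlier results of these data known. Named genes were the 10 members, per list the 4 largest differences without overlap, the genes of the ratios and the 3 nearest patterns. A few listed genes were not analysed here. Alternatives were other scalings, added constants of 1 and 64, filters on dim genes, averaged probe sets, other priors, the replicate number as a block and single arrays left out. The number of arrays limits the precision.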

Additional observations from a re-analysis of the deposited data

How the results depend on the processing

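The count of genes called by limma depended on the prior and on dim genes. Against 0 higher and 0 lower with the constant prior, there were 98 and 70 with a prior that followed the signal, 41 and 29 with log2(signal + 64), 25 and 17 without the dimmest 25% of genes, 96 and 81 without the dimmest 50%, 9 and 3 with probe sets averaged, and 3 and 0 with arrays centred on their medians. Chosen after seeing the data, the probe set of highest linear mean gave 3 and 2, and a prior that followed the signal gave 86 and 56 on quantile normalized signals and 138 and 90 with the replicate block. Leaving out 1 array gave 0 and 0 each time with the constant prior. With a prior that followed the signal it gave 7 and 8 without Control replicate 1, 5 and 0 without Control replicate 2, 134 and 93 without MC903 replicate 1, and 546 and 400 without MC903 replicate 2. None of the 10 genes was called in any of these, except that 4 were without MC903 replicate 1 (Il1b, Il1f6, Il1f8 and Il1rn) and 5 without MC903 replicate 2 (these and Il1f9), both with a prior that followed the signal. The lone array is then assumed to vary like the other group. With the replicate block 0 genes were called by a constant prior. Same-numbered arrays correlated at -0.061 in their deviations over genes. With 2 arrays a group this value cannot decide whether the numbers pair the samples, and the sample titles do not state it.

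The number of the 10 genes higher without overlap was 7 to 8 when 1 array was left out. It was 6 with averaged probe sets. Without the dimmest 50% of genes it was 6 because that filter removed Il1a. The number lower was 0 with quantile normalization, with array median centring and with averaged probe sets, and 1 to 2 with 1 array left out. The number at least 2-fold higher was 5 without MC903 replicate 1 and 2 to 5 over all arrays left out. Of 129 alternative values of the 10 genes, 122 kept their sign, and those that did not belonged to Il18, Il1rap and Il1r2. Many of the 129 could not differ from the main value, so this count overstates stability. Filters on dim genes and the replicate block leave the difference of a gene unchanged. Averaging could move it only for the 3 genes with other probe sets, and the probe set of highest linear mean changed none of the 10. The ratio of Il1a over Il1rn changed sign with log2(signal + 64) (log2 change -0.052), that of Il18 over Il18bp without MC903 replicate 1 (0.62), and that of Il1rap over Il1r2 with quantile normalization (0.077), averaged probe sets (0.26), without MC903 replicate 1 (0.00) and without Control replicate 1 (0.14). With 1 array left out, Il18 over Il18bp ranged from -1.25 to 0.62, Il1rap over Il1r2 from -0.25 to 0.14, Il1r1 over Il1r2 from 0.042 to 0.59, Il1f9 over Il1f5 from 0.18 to 0.51, Il1f6 over Il1f5 from 0.78 to 1.27, Il1b over Il1rn from 0.88 to 3.37 and Il1a over Il1rn from 0.020 to 0.17. The cause was not tested. The median of the other family genes was 0.58 with array median centring, 0.69 with log2(signal + 1), 0.37 with log2(signal + 64), 0.60 without the dimmest 25% and 0.55 with averaged probe sets. That of processing genes was 0.49, 0.48 and 0.33 with array median centring and constants of 1 and 64. That of signalling genes was 0.38 with array median centring and 0.18 with averaged probe sets. With 1 array left out these medians ranged from 0.50 to 0.58 for the other family genes, 0.31 to 0.45 for processing genes, 0.24 to 0.38 for signalling genes and 1.12 to 1.93 for responsive genes.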
